A study of Mus musculus with 8 samples.

Results

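The Yippee-like genes encode small zinc-binding proteins that are conserved from fungi to mammals. They were chosen as the rows of the expression table whose symbol was Ypel1, Ypel2, Ypel3 or Ypel5, which gave 4 genes of the 22200 in the table. The family was selected on the normalised reads of these same 3 groups, in which its values were already known, so its levels and changes are given as a description without a test.

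The cells were immortalized mouse embryonic fibroblasts (MEFs) on a C57BL/6 background, labelled TAF4-/-. TAF4 belongs to TFIID, the complex that recruits RNA polymerase II to promoters. According to the study's methods the cells were a single line, C3, obtained from Taf4 lox/- embryo cells by Cre-mediated deletion of the floxed allele, so all groups lacked TAF4 by their labels, whereas the sample titles carry the tag cl1, which resembles the study's name for the parental C1 line. There were 3 libraries of untreated cells at 12 h, 3 libraries of cells treated with retinoic acid (RA) for 12 h and 2 libraries of cells treated with RA for 72 h. RA was the all-trans form at the micromolar concentration given in the methods, and RA binds nuclear receptors that act on target genes as heterodimers. No untreated library at 72 h was analysed here, so treatment and time in culture cannot be told apart at 72 h. Nothing in the labels says that the libraries came from separate cultures, so the adjusted p-values measure the spread between these libraries, which may be technical.

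Expression is given in normalised reads per gene as deposited. The authors' values were quantile normalised, with each column totalling 9442019 reads, so the depth of each library is not known. Of the fibroblast markers, 7 of 8 had a mean of at least 10, and their summed level was 193253 to 216684 in untreated cells, 201018 to 208082 at 12 h and 173342 to 185590 at 72 h, while Thy1 was near the lowest value of the table in every group. This sum was mostly Vim and Col1a1 and hides differences of single markers. From untreated cells to 72 h the mean went from 27243 to 19667 for Col1a2 and from 21176 to 7868 for Col3a1. In the other direction it went from 206 to 408 for Pdgfra and from 806.5 to 1143 for Pdgfrb. Of 14 markers of epithelial, endothelial, blood, glial and muscle cells, 4 had a mean of at least 10 and no single value exceeded 33, with summed levels of 95.9 to 127.5, 93.6 to 132.6 and 120.5 to 129.6 in the 3 groups. Taf4a itself was listed at 1252 ± 178 (SD, n = 3), 1089 ± 96.0 (n = 3) and 1409 ± 56.3 (n = 2), which does not test the deletion if the remaining exons were counted. Libraries of each group also differed along an axis shared by many genes, which held 50.1% of the variance within groups. The sign of each library's score on this axis set its side. The first side held 2 untreated libraries (replicates 1 and 2), replicate 3 of the 12 h group and replicate 2 of the 72 h group. The second side held the other 4 libraries. The changes of the Yippee-like genes are also given within each side. The 2 libraries at 72 h deviate from their mean by opposite amounts, so 1 had to fall on each side. Values within a side at 72 h thus rest on 1 RA library each, and on the second side on 1 untreated library. At 12 h they rest on 1 RA library on the first side and 1 untreated library on the second. The axis came from these same data, so these values are no separate check.

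The family is named after the Drosophila Yippee protein. YPEL1 has been described as changing fibroblast shape towards an epithelial-like form, YPEL3 as a target of p53 that is linked to growth arrest and senescence, and YPEL5 as a component of the CTLH E3 ubiquitin ligase, the mammalian counterpart of the yeast GID complex. The Yippee fold is related to that of Mis18 proteins, of cereblon and of methionine sulfoxide reductases B.

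The gene structures were taken from the mouse mm9 annotation. Ypel1 (ENSMUSG00000022773) lies on the plus strand of chromosome 16 at chr16:17069789-17087138, with 5 exons and a transcript of 3322 bases. Ypel2 (ENSMUSG00000018427) lies on the minus strand at chr11:86749927-86807209, with 5 exons and a transcript of 4847 bases. Ypel3 (ENSMUSG00000042675) is the most compact, at chr7:133920469-133924028 on the plus strand, with 5 exons and a transcript of 973 bases. Ypel5 (ENSMUSG00000039770) lies on the plus strand at chr17:73186044-73200535, with 3 exons and a transcript of 2869 bases.

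The labels describe DpnII tag profiling, in which a read starts at the DpnII site nearest the 3′ end of a transcript, whereas the study's methods describe fragmented RNA and 54-base reads. The sequences that such a tag would cover are shown because they decide whether the 4 genes could be told apart. Each starts at the most 3′ DpnII site of the transcript, lies in the 3′ untranslated region and reads 5′ to 3′ on the gene's strand in mm9, with the DpnII site in capitals. They are at chr16:17086754-17086774, chr11:86749953-86749973, chr7:133923955-133923975 and chr17:73200509-73200529.
Ypel1: GATCagaaatgagattttttt
Ypel2: GATCtgtgttggtgctcattt
Ypel3: GATCcctcttacctgcaacgt
Ypel5: GATCtagttgaattggattat

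Over the whole stretch shown, each of these 4 tags was found in 1 protein-coding gene only, among annotated protein-coding transcripts in sense direction. The shorter 18-base reads of the labels, non-coding genes and the rest of the genome were not searched. The Ypel1 tag lies within the 491 bases by which Ypel1 overlaps Ppil2 on the opposite strand, and Ypel1 also overlaps the pseudogene Gm9974 on the opposite strand by 693 bases, so its value is uncertain if reads were counted without strand. Only 1 annotated transcript per gene was searched for sites. The transcript used for Ypel1 appears to end before the gene's annotated end, and a later site in a longer transcript was not looked for.

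The coding sequences of Ypel1, Ypel2 and Ypel3 were close to each other and that of Ypel5 was more distant. Coding identity was 80.3% between Ypel1 and Ypel2, 78.3% between Ypel1 and Ypel3 and 82.2% between Ypel2 and Ypel3. Ypel5 shared 51.7% of its aligned coding bases with Ypel3 and 52.7% with Ypel1. The longest runs of identical bases between pairs show how far reads could be ambiguous, with the whole run in lower case as the shared stretch.
Ypel1 and Ypel2: gggcgagcctacctcttcaactc
Ypel1 and Ypel3: ccacatgatcaaagacaacggctgg
Ypel2 and Ypel3: accactttgggctggaaatatga

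These runs start at coding bases 136, 330 and 250. The run of Ypel1 and Ypel3 holds a DpnII site that is not the most 3′ one. An 18-base read starting at that site would be the same for Ypel1 and Ypel3. Of all 18-base stretches, 7 were shared by Ypel1 and Ypel2, 16 by Ypel1 and Ypel3 and 6 by Ypel2 and Ypel3, while Ypel5 shared 0 with any of them. No pair shared a stretch of 54 bases, the read length of the study's methods.

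Ypel3, linked to growth arrest, showed the largest difference of the 4 genes at 72 h. It was listed at 167, 142 and 129.8 normalised reads in untreated cells, at 125, 110 and 121 after 12 h of RA and at 31.4 and 50.4 after 72 h. The 3 groups did not overlap, and both libraries at 72 h were far below every other library. The mean was 146 ± 19.0 (SD, n = 3) in untreated cells, 119 ± 7.73 (n = 3) at 12 h and 40.9 ± 13.4 (n = 2) at 72 h, so that 28.0% of the untreated level was left. On the scale of log2(value + 1), Ypel3 was lower by 0.29 ± 0.18 (SE) at 12 h, and its log2 difference from untreated cells at 72 h was -1.84 ± 0.21, a 3.59-fold lower level. From 12 h to 72 h the difference was -1.55 ± 0.21. Within the first side the log2 difference between 72 h and untreated cells was -1.59 and within the second side -2.01.

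Ypel1, described as acting on fibroblast shape, had the lowest level of the 4 per length of transcript. The untreated libraries were almost equal at 47, 46 and 46.2 normalised reads, the RA 12 h libraries were spread at 39.2, 22.4 and 32.8, and the RA 72 h libraries were listed at 9.75 and 19.8. No group overlapped another, but the spread grew where the level was lower. The means were 46.4 ± 0.520, 31.5 ± 8.51 and 14.8 ± 7.07, which left 67.8% and 31.8% of the untreated level at 12 h and 72 h. The log2 difference from untreated cells was -0.58 ± 0.28 at 12 h and -1.67 ± 0.32 at 72 h, the latter a 3.17-fold lower level. Within the first and second side the difference was -0.49 and -0.62 at 12 h. The size of the change at 72 h differed between the libraries, since without RA 72 h replicate 1 it was -1.19 and without replicate 2 it was -2.14, and between 12 h and 72 h the difference, -1.08 with an SE of 0.32, was -0.61 without RA 72 h replicate 1.

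Ypel2 differed less. It was listed at 96.6, 96.6 and 119.6 normalised reads in untreated cells, at 84.6, 80.9 and 98.2 at 12 h and at 72.1 and 57.9 at 72 h. The untreated and 12 h groups overlapped, while both libraries at 72 h were below all others. The means were 104 ± 13.3, 87.9 ± 9.14 and 65.0 ± 10.1. The log2 difference from untreated cells was -0.24 ± 0.17 at 12 h and -0.67 ± 0.19 at 72 h, a 1.60-fold lower level. At 12 h the 2 sides disagreed for Ypel2, with a log2 difference of 0.02 within the first side and -0.53 within the second. At 72 h they gave -0.73 and -0.72, each from 1 RA 72 h library, and the second against 1 untreated library.

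Ypel5, the CTLH component, had the highest level per length and differed the least between groups. It was listed at 591, 579 and 598 normalised reads in untreated cells, at 548, 595 and 544 at 12 h and at 435 and 457 at 72 h. The untreated and 12 h libraries overlapped, and the 72 h libraries were below all of them. The means were 589 ± 9.24, 562 ± 28.3 and 446 ± 15.6, so that 75.7% of the untreated level was left at 72 h. The log2 difference from untreated cells was -0.07 ± 0.10 at 12 h, less than its error, and -0.40 ± 0.11 at 72 h, a 1.32-fold lower level. Within the first and second side the difference at 72 h was -0.36 and -0.46.

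**Figure D1:**
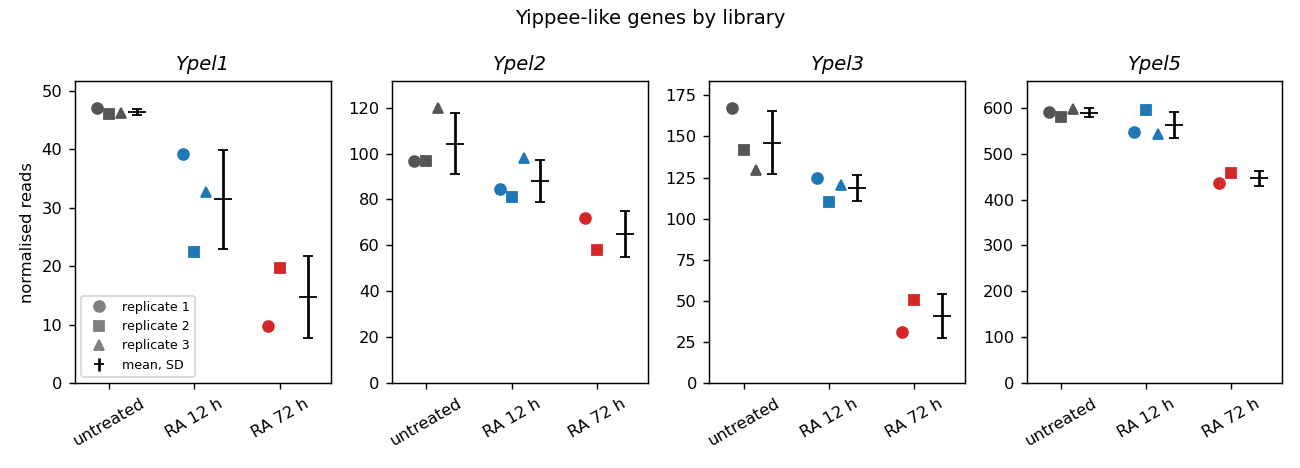
Normalised reads (vertical axis, linear from 0) of the 4 Yippee-like genes in each library of untreated cells and of cells treated with RA for 12 h or 72 h, with symbols for the replicate and a bar for the mean and SD. Both 72 h libraries lie below all untreated and 12 h libraries in each of the 4 panels, and the remaining share of the untreated mean ranges from 28.0% for Ypel3 to 75.7% for Ypel5.

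In each of the 4 genes the mean was highest in untreated cells, intermediate at 12 h and lowest at 72 h. Untreated cells and cells at 12 h could not be ordered for Ypel2 and Ypel5, whose libraries overlapped. At 12 h, 2 of the 4 genes (Ypel1 and Ypel3) were lower without overlap, as were 10.6% of the 12673 genes tested. At 72 h, 4 of 4 were lower than untreated without overlap, against 19.4% of genes tested, and 4 of 4 were lower than at 12 h, against 19.2%. At least 2-fold lower levels were seen for 0 of 4 at 12 h and for 2 of 4 (Ypel1 and Ypel3) at 72 h against untreated, where 0.473% and 1.77% of genes tested were that much lower. Between 12 h and 72 h the same 2 genes were at least 2-fold lower, against 1.0% of genes tested. Because the genes were chosen with these contrasts known, nothing is read from the counts. In these bulk samples, fewer cells expressing a gene and less RNA per cell cannot be told apart.

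The place of each gene among all genes tested describes the size of its difference and, since the genes were chosen with these contrasts known, is no test of it. In 72 h against untreated cells, 41 genes (0.324% of those tested) had a log2 difference as low as that of Ypel3, 60 (0.473%) one as low as that of Ypel1, 617 (4.87%) one as low as that of Ypel2 and 1571 (12.4%) one as low as that of Ypel5. At 12 h the same shares were 13.4% for Ypel3, 2.97% for Ypel1, 17.7% for Ypel2 and 41.2% for Ypel5. Ypel1 thus ranked lowest at 12 h and Ypel3 at 72 h. Between 12 h and 72 h, 27 genes (0.213%) were as low as Ypel3 and 95 (0.750%) as low as Ypel1.

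**Figure D2:**
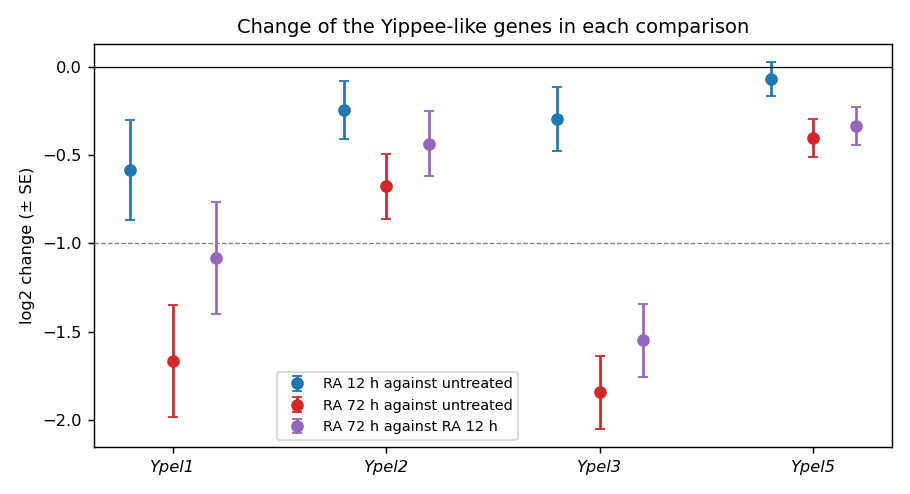
The log2 difference (vertical axis, with SE as error bars) of each Yippee-like gene in the 3 comparisons, on the log2(value + 1) scale, with a dashed line at a 2-fold lower level. Only Ypel1 and Ypel3 lie below the dashed line, at -1.67 and -1.84 for RA 72 h against untreated and at -1.08 and -1.55 for RA 72 h against RA 12 h.

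Levels were compared between the genes per length, as reads of fragmented RNA would require. Per kilobase of transcript, untreated cells held 205 ± 3.22 normalised reads of Ypel5, 150 ± 19.5 of Ypel3, 21.5 ± 2.74 of Ypel2 and 13.97 ± 0.157 of Ypel1. At 72 h the level per kilobase was 156 ± 5.45 for Ypel5, 42.0 ± 13.8 for Ypel3, 13.4 for Ypel2 and 4.44 ± 2.13 for Ypel1, in the same order. Without division by length, which tag profiling would not require, Ypel2 (65.0 reads) stood above Ypel3 (40.9 reads) at 72 h, so the order of these genes depends on the assay.

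The fifth gene of the family, Ypel4 (ENSMUSG00000034059), was also in the table, but with a mean of 2.63 normalised reads it was not tested. It was listed at 5.25, 3.88 and 1.75 in untreated cells, at 1.88, 2.50 and 2.38 at 12 h and at 1 and 2.38 at 72 h. These values are near 1, the lowest value of the table, and no difference between the groups can be read from them.

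Within the groups the 4 genes did not share an order of the libraries. RA 12 h replicate 2 was the lowest of its group for Ypel1, Ypel2 and Ypel3 and the highest for Ypel5. RA 72 h replicate 1 was the lower of the pair for Ypel1, Ypel3 and Ypel5 and the higher for Ypel2. After subtraction of the group means, Pearson's r over the 8 libraries was 0.81 between Ypel1 and Ypel3 and -0.65 between Ypel2 and Ypel3. With the group differences kept in, r was highest for Ypel3 and Ypel5 at 0.95 and lowest for Ypel1 and Ypel2 at 0.74. The deviations of the 2 libraries at 72 h are opposite by construction. For Ypel1 and Ypel3 they were the largest of all libraries, at 0.47 and 0.33 in size, so the r of 0.81 rests largely on this pair. The points share libraries and normalisation, and are too few for more than a description.

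The genes with the highest r to each Yippee-like gene across the 8 libraries are given as a description. They were picked from 12672 genes with the group differences kept in, so high values of r were bound to appear. A high r also does not mean a difference of like size. The 3 genes with the highest r to Ypel3 were Pdk4 (0.992), an inhibitory kinase of the pyruvate dehydrogenase complex, Mycbp2 (0.987), a large E3 ubiquitin ligase, and Prrc1 (0.986). Pdk4 was listed at 107 ± 4.03 in untreated cells, 90.4 ± 1.08 at 12 h and 51.4 ± 10.8 at 72 h. The closest to Ypel5 were Col3a1 (0.989), a fibrillar collagen chain, Calml4 (0.987) and 9130005N14Rik (0.986). Their differences at 72 h were larger than that of Ypel5, at -1.43 for Col3a1, -1.76 for Calml4 and -0.82 for 9130005N14Rik on the log2 scale. For Ypel1 they were Rftn2 (0.990), a lipid raft protein, D16Ertd472e (0.986) and 1110018G07Rik (0.983), and for Ypel2 they were Sh3d19 (0.978), AA881470 (0.974) and Nmnat3 (0.973), an enzyme of NAD synthesis. The number of genes with r of at least 0.9 was 230 for Ypel3, 199 for Ypel5, 98 for Ypel1 and 90 for Ypel2, of 12672 genes. Such counts were not made for other genes, so nothing is read from them.

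The other genes of pathways in which the Yippee-like proteins have a known role were examined by lists. Calls are genes with an adjusted p below 0.05 in limma after Benjamini-Hochberg adjustment over all genes tested. Over all genes, 554 (4.37%) were called at 12 h, 2.87% as higher and 1.5% as lower. At 72 h against untreated cells 1456 (11.5%) were called, 6.08% as higher and 5.41% as lower, and between 12 h and 72 h 740 (5.84%), with 2.92% in each direction. Counts at an unadjusted p below 0.05 in limma are given below without the share over all genes, so nothing is read from them.

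Of the CTLH complex, in which YPEL5 is found, 0 of 10 genes were called in any of the 3 comparisons by limma. At an unadjusted p below 0.05 there was 1 lower gene at 12 h, 0 genes at 72 h against untreated cells, and 2 higher and 1 lower between 12 h and 72 h. The scaffold genes Ranbp9 and Ranbp10 were listed at means of 60.5 and 102 in untreated cells and 71.7 and 104 at 72 h. The RING subunits Maea, Rmnd5a and Rmnd5b had log2 differences of -0.13 ± 0.14, -0.18 ± 0.28 and 0.07 ± 0.18 at 72 h against untreated. The substrate receptor Gid4 moved most between 12 h and 72 h, by 0.40 ± 0.14 with an adjusted p of 0.133 in limma. Gid8, Armc8, Wdr26 and Mkln1 differed from untreated cells at 72 h by 0.08, 0.10, -0.08 and -0.15. The median log2 difference of the list was 0.06 at 72 h, beside -0.02 over all genes tested and -0.40 for Ypel5.

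Among 6 genes with a fold related to that of Yippee, 0 were called at 12 h, also at an unadjusted p below 0.05 in limma. At 72 h, 1 was higher and 1 lower than in untreated cells. Oip5, a Mis18 complex subunit of the centromere, rose from 391 ± 9.84 to 605 ± 21.2 (log2 difference 0.63 ± 0.12, adjusted p = 0.0037 in limma). Msrb3, a methionine sulfoxide reductase, fell from 2355 ± 210 to 1667 ± 186 (-0.50 ± 0.13, adjusted p = 0.0217 in limma). This call was lost without RA 72 h replicate 2, where the log2 difference was -0.38. It was also lost without untreated replicate 1, with a replicate block and with no variance trend (adjusted p of 0.0626, 0.0502 and 0.0845 in limma). The other 4 were not called, with differences at 72 h of -0.48 ± 0.44 for Mis18a, -0.19 ± 0.13 for Crbn, -0.05 ± 0.13 for Msrb1 and -0.17 ± 0.30 for Msrb2. The list's median was -0.18 at 72 h and -0.01 at 12 h.

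Of 27 tested genes of the list of p53 and its targets, a set in which YPEL3 has been placed, 4 were higher and 1 lower at 12 h, and 4 higher and 4 lower at 72 h against untreated. At an unadjusted p below 0.05 in limma, 6 were higher and 3 lower at 12 h, and 4 higher and 7 lower at 72 h. Between 12 h and 72 h, 0 were called higher and 2 lower, with 0 higher and 7 lower at an unadjusted p below 0.05 in limma. Cdkn1a, the inhibitor of cyclin-dependent kinases p21, rose from 35.8 ± 9.67 to 121 ± 14.5 at 12 h and stayed at 116 ± 31.9 at 72 h, with log2 differences of 1.76 ± 0.22 and 1.69 ± 0.25 (adjusted p = 0.000282 and 0.000606 in limma). Perp, a desmosome protein, rose by 0.73 at 12 h and 1.05 at 72 h, and Ddit4, an inhibitor of mTORC1 signalling, by 0.70 and 0.58. Gadd45a, a stress response gene, rose by 0.89 ± 0.16 at 12 h, but its difference at 72 h was 0.10 ± 0.18. Plk2, a polo-like kinase, fell from 786 ± 54.4 to 302 ± 5.92 at 72 h (-1.37 ± 0.11, adjusted p = 3.68e-06 in limma). The death receptor gene Fas fell by 0.86 at 12 h and by 0.59 at 72 h, Plk3 fell by 1.26 at 72 h and Pmaip1, a BH3-only protein gene, rose by 0.86 at 72 h. The 72 h calls of Fas, Plk3 and Pmaip1 were each lost when either RA 72 h library was left out. They were each also lost without untreated replicate 1 and with no filter, among other settings. That of Ddit4 was lost without RA 72 h replicate 2, where its log2 difference was 0.50. The 8 calls of the list at 72 h became 4 without untreated replicate 1, and were also fewer when either RA 72 h library was left out. The median over the list was -0.08 at 72 h, beside -1.84 for Ypel3, and the list thus held called genes in both directions.

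Of 15 tested genes linked to growth arrest and quiescence, 2 were lower and 0 higher at 12 h (2 higher and 3 lower at an unadjusted p below 0.05 in limma). At 72 h 1 was higher and 3 lower than in untreated cells (1 higher and 6 lower at an unadjusted p below 0.05 in limma). Between 12 h and 72 h, 0 were called (0 higher and 2 lower at an unadjusted p below 0.05 in limma). Gas2, a growth arrest-specific gene, fell from 714 ± 78.5 to 405 ± 42.7 at 12 h and was 372 ± 6.98 at 72 h (-0.81 ± 0.12 and -0.93 ± 0.13, adjusted p = 0.000867 and 0.000399 in limma). Btg1, an antiproliferative gene, fell by 0.58 at 12 h and 0.77 at 72 h, and Pdcd4, an inhibitor of translation initiation, fell by 0.65 at 72 h. Cdkn2c, the inhibitor p18, rose by 0.67 ± 0.19 at 72 h (adjusted p = 0.0326 in limma), a call lost without either RA 72 h library. The 12 h call of Btg1 rested on single libraries, since leaving out replicate 1 or 2 of either group took its adjusted p in limma to between 0.0576 and 0.14. Without RA 72 h replicate 1, 1 gene of the list was called at 72 h, and the calls of Btg1 (adjusted p = 0.0726 in limma) and Pdcd4 (0.116) were lost. The list's median was -0.17 at 12 h and -0.10 at 72 h.

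Of the proliferation genes, most but not all were higher at 72 h. At 12 h, 0 of 12 were called in limma and 1 was lower at an unadjusted p below 0.05, whereas at 72 h 8 of 12 were higher than in untreated cells and 0 lower, also at an unadjusted p below 0.05, with a median of 0.71 beside -0.02 over all genes. Between 12 h and 72 h, 8 were called higher and 0 lower, and 9 were higher and 0 lower at an unadjusted p below 0.05 in limma. The spindle checkpoint kinase gene Bub1 rose from 393 ± 39.3 to 798 ± 51.9 (1.02 ± 0.12, adjusted p = 0.000101 in limma). Ccna2, cyclin A, rose from 575 ± 20.5 to 1110.5 ± 13.4, Aurkb, a mitotic kinase gene, from 188 ± 13.1 to 366 ± 6.98, and Mki67, which encodes the Ki-67 antigen, from 135 ± 10.7 to 247 ± 24.6. Ccnb1, Top2a and Cdk1 rose by 0.74, 0.73 and 0.69 on the log2 scale. Plk1 was called only between 12 h and 72 h (1.46 ± 0.36, adjusted p = 0.0292 in limma), at means of 19.7 in untreated cells, 11 at 12 h and 32.0 at 72 h. The 4 genes not called at 72 h against untreated were Plk1, Mcm2, Mcm5 and Pcna. Mcm2 and Pcna, both of DNA replication, were the only 2 of the 12 with values below 0 (-0.31 ± 0.15 and -0.20 ± 0.14). Mcm5 and Tyms, also linked to DNA synthesis, differed by 0.20 ± 0.11 and 0.53 ± 0.14. Tyms was called higher (adjusted p = 0.0291 in limma). This call was lost without either RA 72 h library, untreated replicate 1 or RA 12 h replicate 2. It was also lost with no filter, a replicate block or no variance trend. Mcm2, Pcna, Mcm5 and Tyms were named after their values were seen. The 72 h calls of Top2a and Cdk1 were lost when either RA 72 h library was left out and with no filter. That of Top2a was also lost with a replicate block and without untreated replicate 2. That of Cdk1 was also lost without untreated replicate 1 and with no variance trend. The call of Ccnb1 was lost without RA 72 h replicate 1, and that of Plk1 without either RA 72 h library. Plk1 was also not called without RA 12 h replicate 2 or 3, with a replicate block and with no filter (adjusted p of 0.0798 to 0.0986 in limma). The number of proliferation genes called at 72 h was 4 without RA 72 h replicate 1 and 5 without replicate 2. The study itself reported no significant effect of RA on C3 cell counts, BrdU incorporation or the cell cycle, and the RNA levels here do not measure growth. The part of the proliferation genes in the levels of the Yippee-like genes was not tested.

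**Figure D3:**
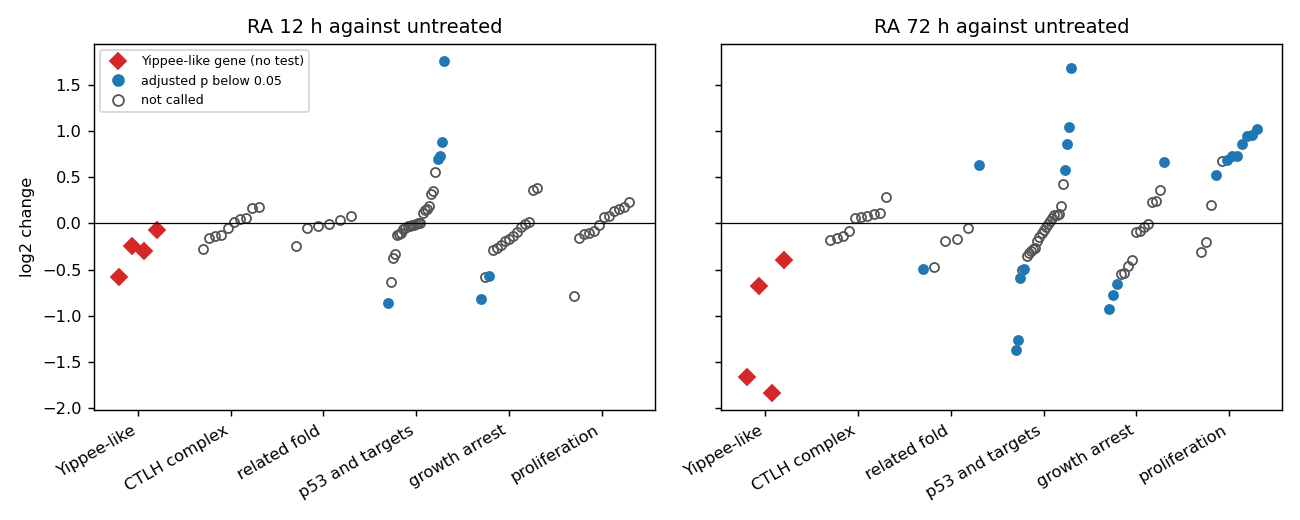
The log2 difference of the 4 Yippee-like genes (diamonds, no test) and of the tested genes of 5 lists (circles, filled where the adjusted p was below 0.05 in limma) at 12 h and at 72 h against untreated cells. At 72 h, 0 of 10 CTLH genes are filled, 8 of 12 proliferation genes are filled and above 0, and the diamonds lie between -1.84 and -0.40.

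The genes beside the Yippee-like genes were examined in the same fit. Of 15 genes of the table that lie nearest to a Yippee-like gene, at most 2 on each side, 13 were tested, and 0 were called lower in any comparison by limma. The difference between each Yippee-like gene and its neighbours was not tested. At 72 h against untreated, 2 were called higher and, at an unadjusted p below 0.05, 3 were higher and 2 lower. The unadjusted counts were 1 higher and 0 lower at 12 h, and 3 higher and 2 lower between 12 h and 72 h. Both called genes were neighbours of Ypel5. Lbh, a transcription cofactor gene that lies 67110 bases away, rose from 101 ± 13.7 to 207 ± 22.8 at 12 h and 293 ± 36.2 at 72 h (1.03 ± 0.15 and 1.53 ± 0.16, adjusted p = 0.000733 and 3.9e-05 in limma), and Lycat, an acyltransferase gene, rose from 823 ± 56.4 to 1282 ± 12.3 at 72 h (0.64 ± 0.10, adjusted p = 0.00117).

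The other neighbours were not called at 72 h against untreated, and the differences of several were near that of Ypel5 (-0.40). Beside Ypel1, Ppil2, which overlaps it on the opposite strand, was listed at 806 ± 143, 676 ± 59.0 and 632 ± 29.4, with a log2 difference of -0.34 ± 0.15 at 72 h, and Ppm1f and 2610318N02Rik differed by 0.03 and 0.74. Beside Ypel3, Gdpd3 and Ppp4c differed by -0.39 ± 0.34 and -0.10 ± 0.11, while AC124505.4 and Tbx6 were too low to test. Beside Ypel2, Cltc, Dhx40, Gdpd1 and 1200011M11Rik differed by -0.36, -0.33, -0.46 and 0.03. On the other flank of Ypel5, Clip4 and Alk differed by 0.19 and 0.53.

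**Figure D4:**
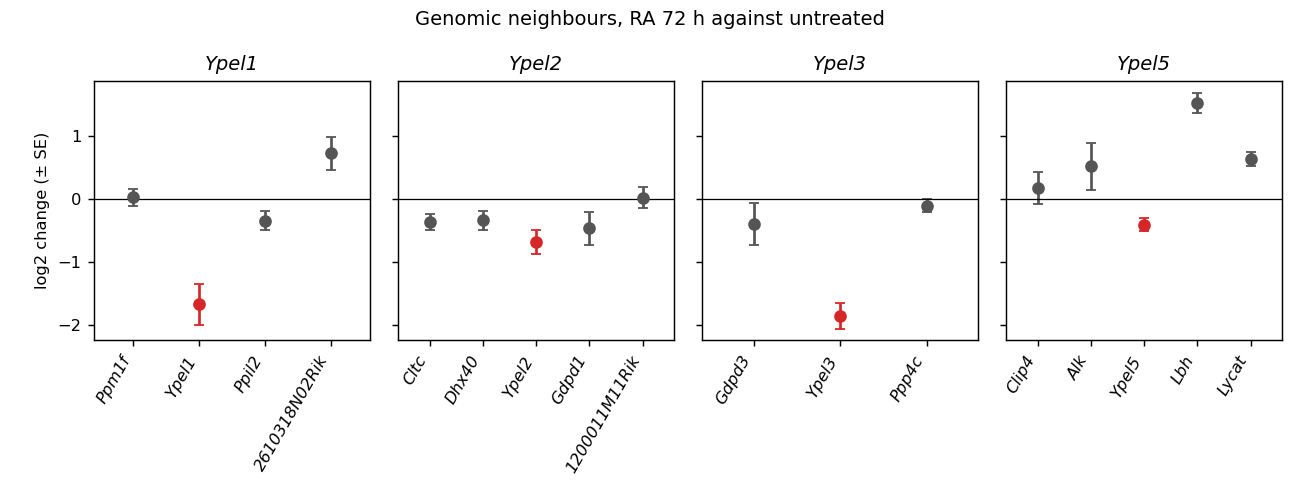
The log2 difference (vertical axis, with SE) between RA 72 h and untreated cells for each Yippee-like gene (red) and the tested genes on either side of it (grey), in chromosomal order and not to distance. Ypel1 at -1.67 and Ypel3 at -1.84 stand below their neighbours, whereas beside Ypel5 at -0.40 stand Lbh at 1.53 and Lycat at 0.64.

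The promoters of the 4 genes shared a high GC content. The windows of 300 bases, from 250 before to 50 after the start, were taken from RefSeq on GRCm38.p6, another build than that of the gene coordinates, with all 4 genes matched and Ypel5 having 2 windows. GC content was 72.7% for Ypel1, 72.7% for Ypel2, 67.7% for Ypel3 and 71.3% and 76.3% for Ypel5, against a median of 52.7% over 32851 windows. They held 34, 28, 28, 30 and 41 CG dinucleotides, against a median of 7. The promoters of the 2 genes with the largest differences at 72 h are shown 5′ to 3′ on the gene's strand, with matches on either strand to GGGCGG (the GC box) and CCAAT in capitals. They are at chr16:17069889-17070188 and chr7:126776713-126777012.
Ypel1: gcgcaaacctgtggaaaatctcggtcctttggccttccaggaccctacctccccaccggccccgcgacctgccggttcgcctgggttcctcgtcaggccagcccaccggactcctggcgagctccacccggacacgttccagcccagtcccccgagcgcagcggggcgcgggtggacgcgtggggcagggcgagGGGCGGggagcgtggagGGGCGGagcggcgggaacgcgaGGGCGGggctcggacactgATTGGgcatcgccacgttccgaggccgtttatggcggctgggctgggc
Ypel3: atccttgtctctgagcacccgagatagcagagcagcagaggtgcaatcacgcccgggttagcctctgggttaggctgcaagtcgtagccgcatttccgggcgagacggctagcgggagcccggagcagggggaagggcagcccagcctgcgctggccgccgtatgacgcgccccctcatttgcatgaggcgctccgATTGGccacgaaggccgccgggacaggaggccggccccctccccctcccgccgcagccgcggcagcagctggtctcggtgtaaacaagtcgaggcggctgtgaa

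Each of the 5 windows held 1 CCAAT, a motif found in 37.4% of all windows. GGGCGG occurred 3 times in Ypel1, 3 times in Ypel2, 0 times in Ypel3 and 5 and 2 times in the windows of Ypel5, and in 35.7% of all windows. AGGTCA, the hexamer recognised by nuclear receptors such as those of RA, was in none of the 5 windows and in 16.3% of all windows. The p53 decamer was likewise in none of the 5 and in 8.36% of all windows. Both strands were searched, overlapping matches were counted, and the absence of a match says only that these letters are not in the window.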

How the data were processed

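The authors deposited normalised reads per Ensembl gene for 8 libraries, 1 column each, with decimal commas. The labels describe DpnII tag profiling with 18-base reads aligned to mm9. The study's methods describe 54-base reads, Tophat, Cufflinks and DESeq normalization, and this conflict could not be settled. The sorted values of all 8 columns were identical, so they had been quantile normalised, depth was lost, and the values were not treated as counts. Columns of group means and log2 ratios computed by the authors were not used, and 1 line without a gene was left out. Genes with a mean of at least 10 (12673 of 22200) were fitted as log2(value + 1) in limma 3.58.1 (R 4.3.3) with 3 groups and a variance trend, after tests on simulated data. Fold changes on this scale understate those of low genes. Calls were adjusted p below 0.05 (Benjamini-Hochberg). The members and lists were chosen with earlier results of these data known. The genes named were the members, Ypel4, all CTLH and fold-related genes, up to 8 called genes of each other list by size, the neighbours and the 3 genes with the highest r to each member. From the proliferation list Mcm2, Pcna, Mcm5 and Tyms were named in addition. One growth arrest gene, Gas1, was not matched, and 1 neighbouring gene is not reported here. Other pseudocounts, no filter, a replicate block, single libraries left out, the side of each library, a correction for gene span, a 2-fold minimum and no variance trend were tried.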

Additional observations from a re-analysis of the deposited data

How the results depend on the processing

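The log2 differences of the Yippee-like genes kept their sign in all 180 values recomputed over the 3 comparisons, and 171 of them moved by less than the spread between replicates or not at all. Many of the values could not move. The difference stays the same with no filter, with no variance trend and without a library of a group outside the comparison, so these counts overstate how stable it is. With a pseudocount of 10, Ypel1 at 72 h against untreated was -1.22. With single libraries left out, the difference at 12 h ranged from -0.76 to -0.36 for Ypel1, -0.32 to -0.14 for Ypel2, -0.38 to -0.19 for Ypel3 and -0.11 to -0.04 for Ypel5. At 72 h against untreated it ranged from -2.14 to -1.19, -0.83 to -0.52, -2.18 to -1.51 and -0.44 to -0.37, and at 72 h against 12 h from -1.56 to -0.61, -0.59 to -0.28, -1.88 to -1.22 and -0.37 to -0.29.

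Counts of called genes depended more on the setting, starting from 554, 1456 and 740 genes at 12 h, at 72 h and between 12 h and 72 h. With single libraries left out, 307 to 1193 genes were called at 12 h, 674 to 2110 at 72 h and 258 to 1121 between 12 h and 72 h. The lowest of these counts came without RA 12 h replicate 2, RA 72 h replicate 1 and RA 72 h replicate 2, and the highest came without untreated replicate 3. In the same order, the p53 list had 5 to 7, 3 to 8 and 1 to 3 calls, the growth arrest list 1 to 4, 1 to 5 and 0 to 0, the proliferation list 0 to 0, 4 to 9 and 3 to 9, and the fold-related list 0 to 0, 1 to 2 and 0 to 2. With the side of each library as a term, 1079, 2589 and 1852 genes were called, with 7 growth arrest genes at 72 h, and 4 growth arrest, 7 p53 and 1 CTLH genes between 12 h and 72 h. With a 2-fold minimum, 180, 465 and 190 genes were called, with 1, 4 and 1 of the p53 list, 0 and 0 of the growth arrest list, 0 and 0 of the fold-related list and 1 and 1 of the proliferation list. With no filter, 1 growth arrest gene was called at 12 h, 4 p53 and 5 proliferation genes at 72 h, and 5 proliferation and 1 fold-related genes between 12 h and 72 h. With no variance trend, 422 genes, 1 p53 and 1 fold-related gene were called between 12 h and 72 h, 1 growth arrest gene at 12 h and 1 fold-related gene at 72 h. The cause of these moves was not tested.

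Deviations from the group means of same-numbered libraries correlated from -0.474 to 0.42 across the pairs of groups. With so few libraries in a group these deviations are tied to each other, so the values cannot show whether the replicate numbers pair the libraries. With a replicate block, 444 genes, 4 proliferation and 0 fold-related genes were called between 12 h and 72 h, 1 growth arrest gene at 12 h, and 5 p53 and 1 fold-related genes at 72 h. The normalisation hides the depth of each library, so the error of low values such as those of Ypel1 could not be separated into counting and other error.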
